A study of Mus musculus with 8 samples.

Results

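The genes described here mark B cells and the antibody-secreting plasma cells that arise from them. They are 9 of 19489 genes with a named probe on the array, Cd79a, Cd79b, Ms4a1, Cd22, Blk, Ighm, Jchain (named Igj in the array files), Mzb1 and Pou2af1. They were chosen by name and not by a cut on measured values, but with earlier results of these data known. On the arrays, 14 of 41127 usable probes carried 1 of these names, a synonym or an accession of the gene. Of these, 12 were among the 28580 probes tested, meaning that they were well above background on at least 4 of 8 arrays, and each of the 9 genes had at least 1 tested probe.

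RNA was taken from the back skin of male mice of the hairless SKH-1 strain, which is used in photobiology. All mice were 19 weeks old and had been exposed on the back to repeated UVB for 10 weeks. The enalapril group (n = 4) received enalapril maleate, at 1% w/v in 30 vol % ethanol, on the skin 5 times a week for 2 weeks, from 1 week after the UVB course. The vehicle group (n = 4) had the same ethanol solution without the drug on the same schedule. Each RNA was hybridised to its own 1-colour Agilent array, and there was no unirradiated or untreated group. Enalapril blocks angiotensin-converting enzyme, which makes angiotensin II, and the comparison asks what the drug applied to irradiated skin changes. The series text also mentions a longer treatment, which was not analysed here.

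B cells recognise antigen through a receptor made of a surface immunoglobulin and the signalling pair Cd79a and Cd79b. After activation some become plasma cells, which secrete antibody in bulk, join IgM and IgA into polymers with the J chain, and turn down surface genes such as Ms4a1. Healthy skin holds few B cells, and the skin samples here are whole tissue, so that fewer cells of a type and less RNA per cell cannot be told apart in any value below.

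The share of spots well above background ranged over the arrays from 67.1% to 72.7%, and no spot was saturated. Processed intensities had an array 75th percentile of 821.5 to 1540, and levels below are processed intensities divided by that percentile of the same array, so that 1 is the percentile itself. Levels of different genes are not compared, and brighter or dimmer refers to the signal of probes of the same gene. The enalapril arrays shared slide 2 and scan 2 and the vehicle arrays slide 1 and scan 1, so for every difference below slide and treatment cannot be told apart. The local background, as an array median, was 48 to 52 units for enalapril and 57.5 to 66 for vehicle. The array enalapril 4 correlated least with the rest of its group, with a mean r of 0.975 over all tested probes against 0.983 to 0.991 for the other arrays. Of the tested probes, 2979 (10.4%) changed at an adjusted p under 0.05 by limma, 1091 (3.82%) being higher and 1888 (6.61%) lower in enalapril.

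The promoters of Jchain and Pou2af1 are shown because these genes varied together from array to array, as described below. Each sequence is the 250 bases upstream of the start in the RefSeq table of GRCm38.p6, written 5′ to 3′, with capitals marking a match to a searched motif on either strand.
Jchain, chr5:88527898-88528147, minus strand: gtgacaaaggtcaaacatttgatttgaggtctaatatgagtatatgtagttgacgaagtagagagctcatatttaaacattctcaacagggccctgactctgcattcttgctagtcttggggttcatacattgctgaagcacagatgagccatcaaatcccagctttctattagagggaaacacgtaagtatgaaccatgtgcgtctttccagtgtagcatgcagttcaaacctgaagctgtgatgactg
Pou2af1, chr9:51213440-51213689, plus strand: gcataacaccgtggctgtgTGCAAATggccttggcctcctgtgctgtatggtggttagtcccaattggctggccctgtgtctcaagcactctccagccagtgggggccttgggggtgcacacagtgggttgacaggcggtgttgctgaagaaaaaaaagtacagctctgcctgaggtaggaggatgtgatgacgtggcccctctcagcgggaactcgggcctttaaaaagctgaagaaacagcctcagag
The motifs searched were the octamer ATGCAAAT, which OCT1 and OCT2 bind and at which the protein of Pou2af1 acts as a coactivator, and TGCAAAT, the octamer without its first base, which lies inside it. The Pou2af1 window held TGCAAAT once, at bases -231 to -225 from the start, and not the whole octamer. Neither set of letters is in the Jchain window. Among 32544 promoter windows of this length in the table, 526 (1.62%) held ATGCAAAT and 1164 (3.58%) held TGCAAAT. The table gave a promoter for 4 of the 9 genes, and in those of Cd79a and Cd22 neither form of the octamer was found. The last motif, CCCNNGGG, the core of the site for the B cell factor EBF1, was in 3867 windows (11.9%), and the Cd22 window held it once.

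Of the 12 tested probes, 1 changed, a probe of Cd79b that was lower in enalapril, and none was higher. That is against the 10.4% of all tested probes that changed, and 4 of the 12 were at an unadjusted p under 0.05, as were 29.4% of all tested probes, the background for every such count below. The change was negative for 11 probes and positive for 1, and the median log2 change, enalapril minus vehicle, was -0.43, against -0.05 over all tested probes. Scaling moved some of these signs. By quantile normalization the probe of Cd79a and the dimmer probe of Jchain were above 0, at 0.11 and 0.02, and in the uncentred deposited values, where the median of all tested probes was -0.41, the probe of Cd22 was at -0.10. The groups did not overlap for 1 of the 12 probes, against 20.2% of all tested probes (13.1% with enalapril lower).

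**Figure D1:**
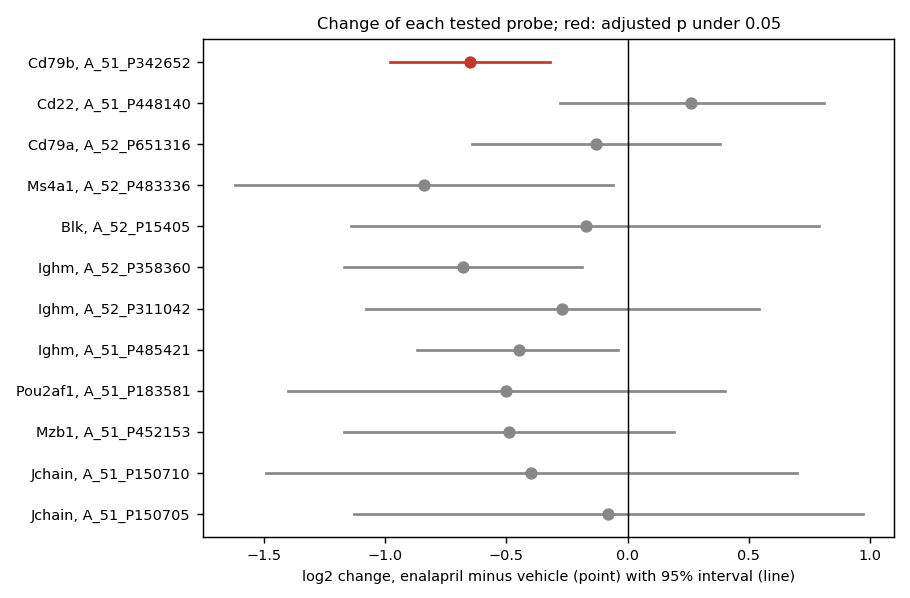
Log2 change, enalapril minus vehicle, of the 12 tested probes, with the 95% interval from limma (n = 4 per group). The Cd79b probe, in red, is the 1 probe with an adjusted p under 0.05, and 11 of the 12 points lie left of 0.

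Cd79b, the Ig-beta chain that carries the receptor's signal into the cell, fell with enalapril. Its probe (A_51_P342652) read 0.387, 0.334, 0.329 and 0.500 on the enalapril arrays, against 0.594, 0.640, 0.599 and 0.563 on the vehicle arrays. Every enalapril array was below every vehicle array, with enalapril 4 the closest to them, and the vehicle arrays lay close together. The mean log2 level was -1.39 ± 0.28 in enalapril and -0.74 ± 0.08 in vehicle (SD, n = 4 each). The log2 change was -0.65 ± 0.14 (SE), or 0.638-fold, with a 95% interval of -0.98 to -0.32 (adjusted p = 0.032, limma). The call held in 1 of 8 fits with an array left out, the one without enalapril 4 (adjusted p = 0.00499), while each of the other 7 put the adjusted p above 0.05, up to 0.0866. The leukocyte markers in common, 9 tested with none called by limma and 2 at an unadjusted p under 0.05, summed to 59.3 to 81.0 in enalapril and 73.8 to 86.3 in vehicle. The 12 tested T cell markers, also with none called and 2 at an unadjusted p under 0.05, summed to 28.6 to 37.7 in enalapril and 30.2 to 36.4 in vehicle. Their part in the Cd79b result was not tested.

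Cd79a, the Ig-alpha partner of Cd79b in the same receptor, was close to background. Its probe (A_52_P651316) read 0.0106, 0.0121, 0.0139 and 0.0136 on the enalapril arrays, against 0.0175, 0.0182, 0.0116 and 0.00931 on the vehicle arrays. It was well above background on enalapril 2, 3 and 4 and on vehicle 2, and the groups overlapped throughout. Enalapril minus vehicle was -0.13 ± 0.22 on the log2 scale (adjusted p = 0.744, limma), with a 95% interval of -0.64 to 0.38. The test therefore did not separate the groups for Cd79a, and its interval overlaps that of Cd79b.

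Ms4a1 encodes CD20, a surface protein of mature B cells that plasma cells lose. The tested probe (A_52_P483336) read 0.0221, 0.0176, 0.0103 and 0.0106 on the enalapril arrays, against 0.0174, 0.0203, 0.0428 and 0.0288 on the vehicle arrays. Vehicle 3 and 4 were above all the other arrays, and enalapril 3 and 4 were the lowest and not well above background, as was vehicle 1. The log2 change of -0.84 ± 0.34 did not pass the test (adjusted p = 0.143, limma), although its unadjusted p was 0.037. By normexp with repaired local backgrounds the change was -0.13 (adjusted p = 0.574, limma). The other Ms4a1 probe (A_51_P277683) was well above background on vehicle 1 alone, so it was not tested. Its levels were 0.00251 to 0.00683 in enalapril and 0.00907 to 0.0241 in vehicle, and no fold is given, because 7 of the 8 values were not well above background.

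Cd22, a lectin-like receptor that dampens receptor signalling, was the 1 gene whose tested probe had a positive change. Its brighter probe (A_51_P448140) read 0.301, 0.312, 0.219 and 0.414 on the enalapril arrays, against 0.345, 0.277, 0.236 and 0.182 on the vehicle arrays, all well above background. The highest array was enalapril 4 and the lowest vehicle 4, with the rest intermixed. This gave a log2 change of 0.26 ± 0.24 (adjusted p = 0.499, limma), with a 95% interval of -0.28 to 0.81. The dimmer Cd22 probe (A_52_P466268) was near background. It read 0.00508 to 0.00974 in enalapril, on no array well above background, and 0.00717 to 0.0211 in vehicle, well above background on vehicle 1 and 2, with the groups overlapping. It was not among the tested probes.

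Blk, a Src-family kinase that acts early in receptor signalling, read 0.0179, 0.0256, 0.0291 and 0.0441 on the enalapril arrays, against 0.0527, 0.0254, 0.0472 and 0.0150 on the vehicle arrays. The vehicle arrays held both the highest and the lowest value, the lowest not well above background. The log2 change was -0.17 ± 0.42 (adjusted p = 0.82, limma), and the within-group SD of the probe was above that of 95.2% of tested probes.

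Ighm, the heavy chain of IgM, had 3 tested probes, which are not replicates of each other. The match of one of them, A_52_P311042, to Ighm rests on the name in the array files and was not checked against a sequence. The brightest (A_52_P358360) read 6.86, 7.76, 5.84 and 10.5 on the enalapril arrays, against 10.3, 11.9, 10.6 and 16.6 on the vehicle arrays. Enalapril 1, 2 and 3 were below all vehicle arrays, while enalapril 4 was level with the lowest of them. The log2 change was -0.68 ± 0.22, with a 95% interval of -1.17 to -0.19, and missed the threshold (unadjusted p = 0.0119, adjusted p = 0.0776, limma). Without enalapril 4, a fit in which 7061 of all probes were called, it passed at -0.84 (adjusted p = 0.018, limma), and in the other 7 fits with an array left out the adjusted p was 0.0967 to 0.172.

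The next Ighm probe (A_51_P485421), printed as 10 spots per array, read 1.03, 1.24, 1.05 and 1.70 in enalapril, against 1.60, 1.41, 1.80 and 1.97 in vehicle. Enalapril 4 was again the array that reached into the vehicle range. Its log2 change was -0.45 ± 0.18 (adjusted p = 0.141, limma), and without enalapril 4 it was -0.61 (adjusted p = 0.0203), against an adjusted p of 0.15 to 0.288 in the other 7 such fits. The SD between its spots within an array was 0.025 to 0.084 on the log2 scale, smaller than the SE of the change. The dimmest probe (A_52_P311042) read 0.0127 to 0.0272 in enalapril and 0.0133 to 0.0361 in vehicle, was well above background on 5 of 8 arrays and gave -0.27 ± 0.35 (adjusted p = 0.652, limma). Immunoglobulin genes are a family of close copies, and cross-hybridisation between them was not tested.

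**Figure D2:**
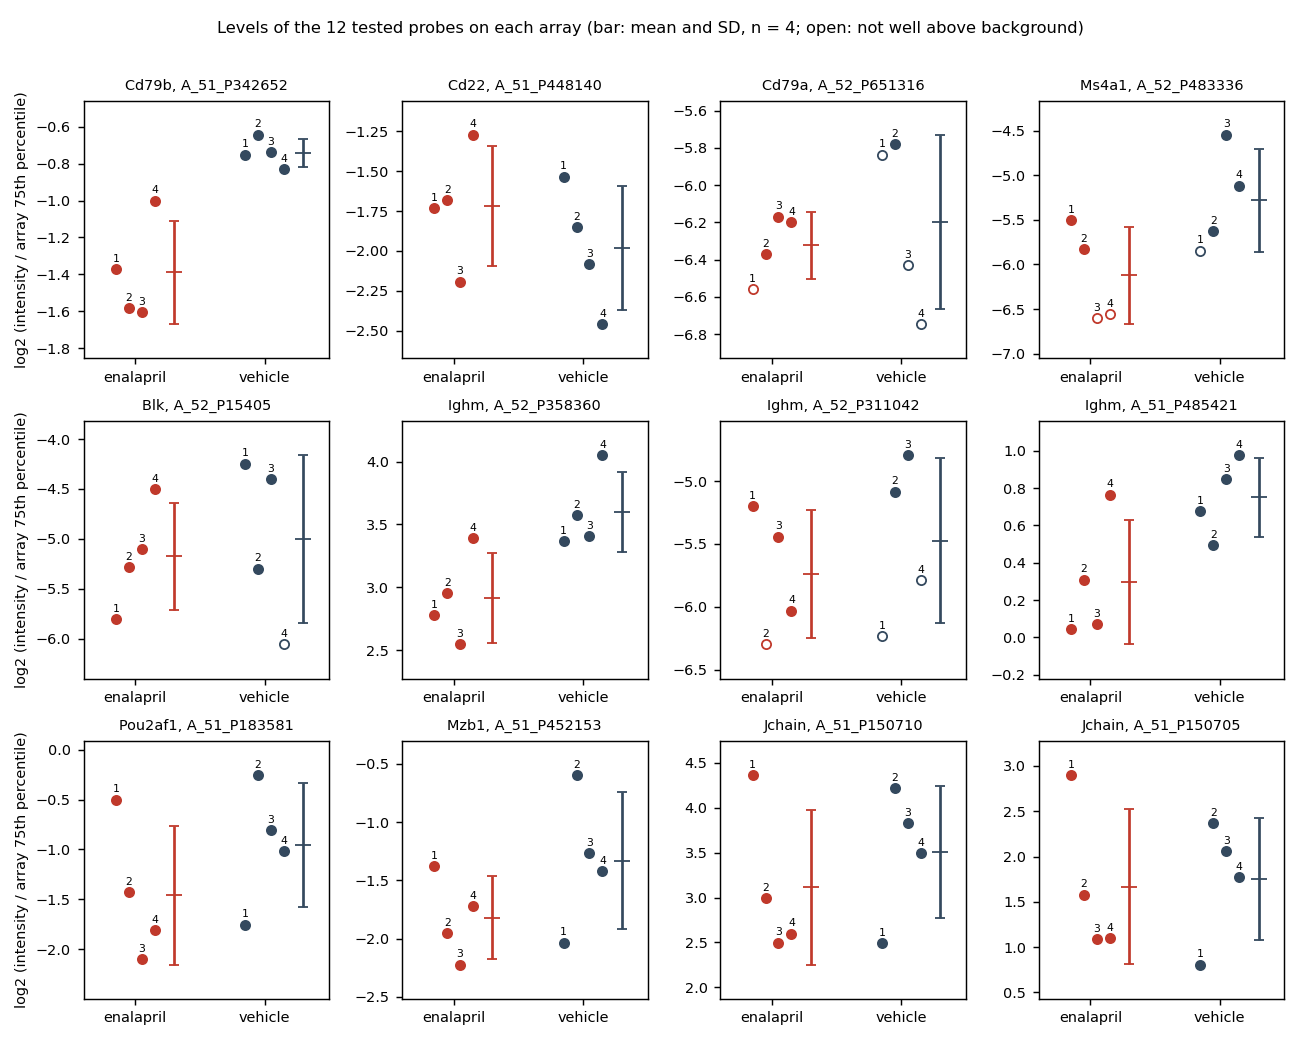
Log2 level relative to the array's 75th percentile for each of the 12 tested probes, with 1 point per array numbered within its group, enalapril in red on the left and vehicle in blue on the right. Bars give the mean and SD (n = 4), open points were not well above background, and each panel has its own axis; the groups are apart for Cd79b and overlap in all the other panels.

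Jchain encodes the J chain, which plasma cells add to polymeric IgM and IgA. It varied far more between arrays of a group than between groups. Its brighter probe (A_51_P150710) read 20.6, 7.95, 5.65 and 6.06 on the enalapril arrays, against 5.62, 18.6, 14.2 and 11.3 on the vehicle arrays. Enalapril 1 was the highest array of all and vehicle 1 the lowest, so the range within a group was 3.64-fold in enalapril and 3.32-fold in vehicle. The log2 change was -0.40 ± 0.48 (adjusted p = 0.621, limma), with a 95% interval of -1.49 to 0.70. The dimmer probe (A_51_P150705) read 7.46, 2.99, 2.13 and 2.15 in enalapril, against 1.75, 5.17, 4.16 and 3.42 in vehicle. Its log2 change of -0.08 ± 0.46 (adjusted p = 0.925, limma) was smaller, although both probes put the 8 arrays in the same order. The within-group SD of the 2 probes exceeded that of 96.8% and 96.3% of tested probes.

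Pou2af1, the octamer coactivator also called OCA-B, is needed for germinal centres and stays on in plasma cells. Its probe (A_51_P183581) read 0.707, 0.372, 0.234 and 0.285 on the enalapril arrays, against 0.297, 0.838, 0.573 and 0.495 on the vehicle arrays. As for Jchain, enalapril 1 was the highest of its group, vehicle 2 the highest and vehicle 1 the lowest of theirs. Between groups the log2 change was -0.50 ± 0.40 (adjusted p = 0.434, limma), with a 95% interval of -1.40 to 0.40.

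Mzb1, a chaperone of the endoplasmic reticulum that helps assemble and secrete IgM, carried a clone name in the array files and was matched by accession. Its probe (A_51_P452153), also printed as 10 spots, read 0.385, 0.258, 0.214 and 0.303 on the enalapril arrays, against 0.244, 0.661, 0.415 and 0.373 on the vehicle arrays. Enalapril 1 and vehicle 2 were again the highest of their groups and enalapril 3 and vehicle 1 the lowest. Between groups the log2 change was -0.49 ± 0.30 (adjusted p = 0.313, limma), with a 95% interval of -1.17 to 0.19. The SD between its spots within an array was 0.055 to 0.259 (median 0.08), smaller than its within-group SD of 0.49 between arrays.

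The shared pattern of the secretory genes was measured as the correlation of deviations from the group mean over the 8 arrays, for 28 pairs among the 8 member probes well above background on all arrays. Pairs between probes of the same gene, for Jchain and for Ighm, are included, so the pairs behind each adjusted p are not independent. Jchain (the brighter probe) and Pou2af1 had a Pearson r of 0.99 and a Spearman rho of 0.98, each with p = 0.00174 (adjusted p = 0.0162 over the 28 pairs), the smallest that an exact permutation within groups can give with 576 pairings, two-sided. Without the 2 arrays farthest from the median r was 0.97. Mzb1 had an r of 0.86 with Jchain (p = 0.0139, adjusted p = 0.0729, exact permutation) and a rho of 0.83 (p = 0.0208, adjusted p = 0.117, exact permutation). With Pou2af1 its r was 0.90 (p = 0.0104, adjusted p = 0.0729, exact permutation) and its rho 0.81 (p = 0.0451, adjusted p = 0.181, exact permutation). Without the 2 farthest arrays these were 0.80 and 0.86. Neither pair with Mzb1 passed after adjustment. The 75th percentile of processed intensity was 1070, 882, 821.5 and 876 on the enalapril arrays, so also highest on enalapril 1 and lowest on enalapril 3. On the vehicle arrays it was 892, 1540, 1540 and 884, so highest on vehicle 2 and 3. Whether the pattern, here or in the immunoglobulin probes below, follows array brightness was not tested.

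For the IgM heavy chain no such correlation was found. The brightest Ighm probe had an r of -0.03 with Jchain (p = 0.944, adjusted p = 0.979, exact permutation) and a rho of 0.24 (p = 0.622). The 10-spot probe had an r of -0.37 (p = 0.431, adjusted p = 0.892, exact permutation) and a rho of -0.33 (p = 0.474). These 2 Ighm probes had an r of 0.80 with each other (p = 0.0417, adjusted p = 0.167, exact permutation; rho 0.55, p = 0.21), which dropped to 0.15 without the 2 farthest arrays and so rested on them. Cd79b and Cd22 had an r of 0.68 (p = 0.0781, adjusted p = 0.273, exact permutation; rho 0.52, p = 0.177), and an r of 0.28 without the 2 farthest arrays. For both Ighm probes, Cd79b and Cd22 the highest enalapril array was enalapril 4, whereas for Jchain, Pou2af1 and Mzb1 it was enalapril 1. Cd79b was otherwise lowest in enalapril on enalapril 3 and highest in vehicle on vehicle 2, as were Jchain, Pou2af1 and Mzb1. With Mzb1 it had a rho of 0.79 (p = 0.0417, adjusted p = 0.181, exact permutation) and an r of 0.41 (p = 0.214, adjusted p = 0.664, exact permutation).

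**Figure D3:**
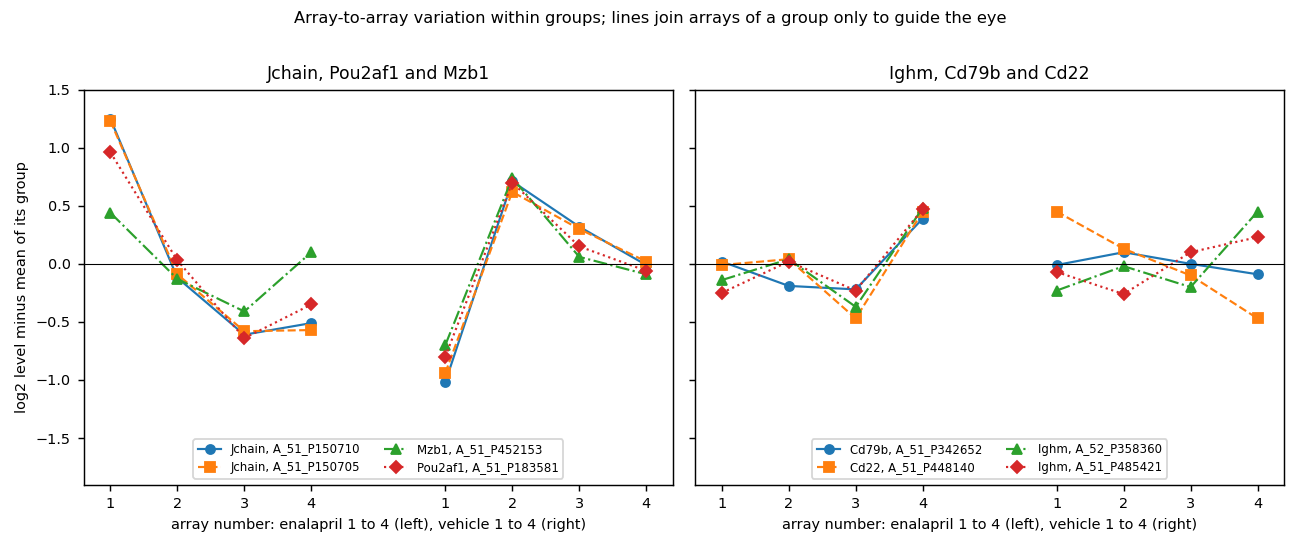
Log2 level of 8 member probes minus the mean of its group, for enalapril arrays 1 to 4 on the left of each panel and vehicle arrays 1 to 4 on the right. Jchain, Pou2af1 and Mzb1 (left panel) are highest on enalapril 1 and vehicle 2 and lowest on enalapril 3 and vehicle 1, while Ighm, Cd79b and Cd22 (right panel) are highest in enalapril on enalapril 4.

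Probes of the antibody genes themselves were mostly high on the same arrays as Jchain. A set of 40 probes whose file names are immunoglobulin genes, with Ighm left out, was put together after values had been seen and is given as a description with no test. The 40 probes carry 18 file names, some of them repeated, such as Igh-VJ558 and Igl-V1, and are not independent genes. The share of all probes that are highest on the same arrays was not computed. Of the 40 probes, 32 were well above background on all 8 arrays, and the highest enalapril array was enalapril 1 for 31 of the 32. The highest vehicle array was vehicle 2 for 27 of the 32, and the lowest was vehicle 1 or 4 for all 32. Their summed level was 400, 180, 145 and 166 on the enalapril arrays, against 147, 394, 268 and 202 on the vehicle arrays. Enalapril 1 and vehicle 2 thus stood above all the others, and the median probe differed 4.08-fold between its highest and lowest array. Some other lists, though not the T cell and leukocyte markers, also summed highest in each group on enalapril 1 and vehicle 2. The sums there were 20.7 and 21 for lymph node stroma markers and 38.2 and 41.1 for B cell survival and recruitment factors. For B lineage transcription factors they were 19.9 and 17.8. By limma none of the 35 tested probes of this set was called and 1 was at an unadjusted p under 0.05, and their median log2 change was 0.06.

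**Figure D4:**
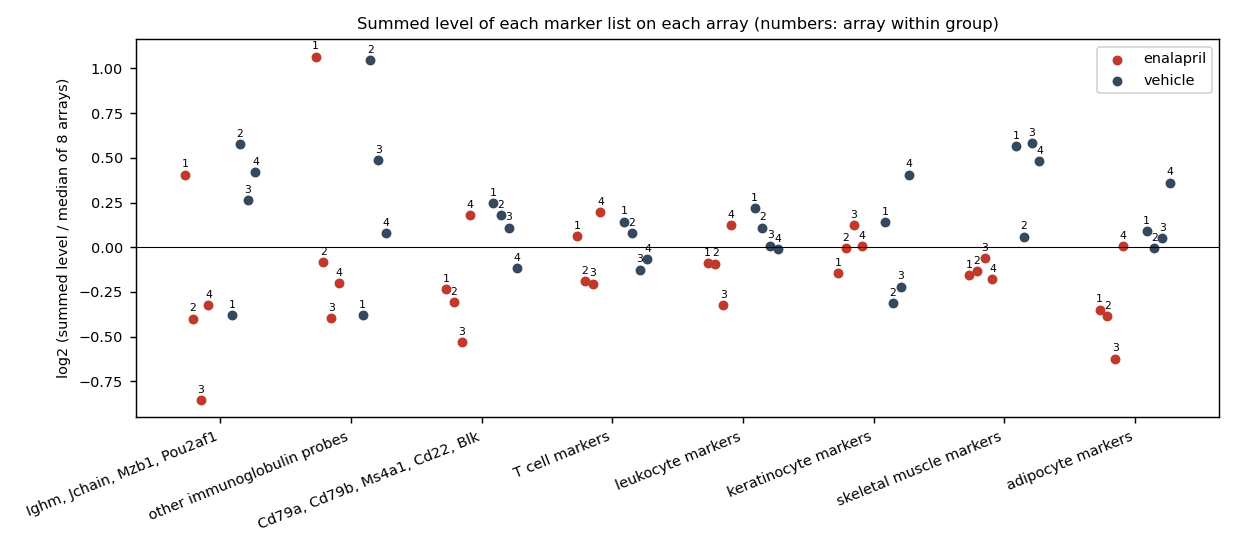
Summed level of each list on each array, as log2 over the median of the 8 arrays, with enalapril in red left of vehicle in blue and the array number above each point. The immunoglobulin probes are highest on enalapril 1 (400) and vehicle 2 (394), which the T cell and leukocyte markers do not share, and the skeletal muscle markers lie lower on all enalapril arrays (614 to 666) than on the vehicle arrays (724 to 1040). Some lists not drawn here, given in the text, are highest in each group on the same arrays as the immunoglobulin probes.

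The genes most like the members were sought among 14726 named genes, by Pearson r over the 8 arrays with the mean deviation of the 6 member genes well above background on all of them. Among the 8 highest were Igkv4-63, a kappa variable segment (r = 0.964), Fcer1a, the alpha chain of the IgE receptor of mast cells and basophils (0.956), the small GTPase Rras2 (0.953), Eaf2, an elongation factor partner found in germinal centre B cells (0.948), the actin regulator Arpin (0.940), D17H6S56E-5 (0.940) and the junctional adhesion gene Jaml (0.940). The 6 genes in the mean differ in pattern, since among the enalapril arrays Cd79b, Cd22 and Ighm were highest on another array than Jchain, and the arrays share their depth and scaling. They are also the highest of 14726 genes ranked over only 8 arrays, where a high r can arise from the selection itself, and no test was made. None of those named was called between the groups.

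Beyond the members, the lists for the B cell lineage held 99 tested genes, each counted once, of which 5 (5.05%) were called, against 10.4% of all tested probes. All 5 were lower in enalapril in this fit, where 6.61% of all tested probes were called lower. The list genes were counted by their brightest probe, whereas these shares are over all probes. With 1 probe per gene throughout, 2711 of 19194 tested probes were called, 1880 lower and 831 higher. In that fit Ikzf1 was called too, higher at 0.44 (adjusted p = 0.0468, limma), as was Rasgrp3, lower at -0.48 (adjusted p = 0.0473, limma). Of 23 tested genes for B cell surface proteins and receptors, 2 fell and none rose, and the median log2 change was -0.29. By limma 7 of the 23 were at an unadjusted p under 0.05, in both directions. Cd40, the receptor through which T cells help B cells and which dendritic cells carry too, read 0.274, 0.271, 0.252 and 0.315 in enalapril, against 0.372, 0.375, 0.404 and 0.444 in vehicle, without overlap. Its log2 change was -0.52 ± 0.11 (adjusted p = 0.027, limma). Ly6d, a surface protein of B cell precursors that keratinocytes also make, had a log2 change of -0.38 ± 0.10 (adjusted p = 0.0491, limma). Both calls were kept in 1 of 8 fits with an array left out, the fit without enalapril 4, and the adjusted p of the other fits reached 0.0756 for Cd40 and 0.13 for Ly6d. Fcrl1 and Cxcr5, 2 defining B cell receptors, were on no array well above background.

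Of 8 tested genes of early B cell stages, 1 fell and none rose, with a median of -0.22, and 2 were at an unadjusted p under 0.05 by limma. The called gene was Vpreb3, which encodes a protein bound to immunoglobulin chains in precursor B cells. It read 0.0418, 0.0366, 0.0314 and 0.0434 in enalapril, against 0.0631, 0.0571, 0.0675 and 0.0676 in vehicle, so the highest enalapril array lay under the lowest vehicle array. Its log2 change was -0.75 ± 0.13 (adjusted p = 0.0182, limma), and it kept its call in 6 of 8 fits with an array left out, losing it without enalapril 2 (adjusted p = 0.0556) and without vehicle 1 (0.0527). By normexp background correction with offset 50 its sign turned, to 0.47, a setting in which no probe of any gene was called. With the local backgrounds repaired, a setting in which 2022 probes were called, its change was -0.21 (adjusted p = 0.332, limma). The recombinase genes Rag1 and Rag2 were on no array well above background.

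Receptor signalling genes gave no call by limma in 18 tested, with 2 at an unadjusted p under 0.05 and a median of -0.01. The smallest p-values belonged to Rasgrp3, a Ras activator, at -0.48 ± 0.14 (adjusted p = 0.0581, limma), and to the PI3K adaptor Pik3ap1, at 0.49 ± 0.15 (adjusted p = 0.0712, limma). None of 14 transcription factors of the lineage was called by limma, 3 were at an unadjusted p under 0.05, and the median was 0.07. Ikzf1, encoding Ikaros, was nearest at 0.44 ± 0.12 (adjusted p = 0.0579, limma), followed by Spi1, encoding PU.1, at 0.53 ± 0.21 (adjusted p = 0.13, limma).

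Of 20 tested plasma cell and secretion genes, 1 fell and none rose, with a median of 0.06. At an unadjusted p under 0.05 by limma there were 7, in both directions. Fkbp11, a prolyl isomerase of the secretory pathway, read 0.853, 0.689, 0.805 and 0.866 in enalapril, against 1.26, 1.47, 1.18 and 1.01 in vehicle. No array of the groups overlapped, and the log2 change was -0.61 ± 0.14 (adjusted p = 0.0327, limma), a call kept in 2 of 8 fits with an array left out, those without enalapril 4 and without vehicle 4, with an adjusted p of up to 0.0853 in the others. Prdm1 and Xbp1, which direct the plasma cell state, had changes of 0.06 ± 0.17 (adjusted p = 0.837, limma) and 0.33 ± 0.12 (adjusted p = 0.118, limma). The other genes of the list at an unadjusted p under 0.05 went both ways without a call. Tnfrsf17 was at -0.77 ± 0.23 (adjusted p = 0.071, limma), with no overlap of the groups, and Eaf2 at -0.57 ± 0.22 (adjusted p = 0.127, limma). Cd28 was at -0.28 ± 0.1 (adjusted p = 0.104, limma). Higher in enalapril were Edem1 at 0.34 ± 0.11 (adjusted p = 0.0736, limma) and Hsp90b1 at 0.31 ± 0.11 (adjusted p = 0.114, limma). For Cd28, Edem1 and Hsp90b1 the groups did not overlap either.

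Among 10 tested survival and recruitment factors, 1 fell and none rose, with a median of -0.18. By limma 3 of the 10 were at an unadjusted p under 0.05, in both directions. Tnfsf13, or APRIL, which binds the receptors TACI and BCMA on plasma cells, read 3.26, 3.44, 2.73 and 3.69 in enalapril, against 5.03, 4.44, 4.16 and 4.97 in vehicle. The groups did not overlap, and the log2 change was -0.51 ± 0.12 (adjusted p = 0.0387, limma), a call kept in 1 of 8 fits with an array left out, the one without enalapril 4, with an adjusted p of up to 0.104 in the others. Of 6 tested probes in the list of named immunoglobulin genes none was called by limma or was at an unadjusted p under 0.05 (a count of 0), and the median was 0.17. The smallest p-values there were for Ighg at 0.51 ± 0.35 (adjusted p = 0.368, limma) and Igh at -0.68 ± 0.52 (adjusted p = 0.416, limma).

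Markers of other tissue in the samples moved as well. Of 10 tested skeletal muscle markers 6 fell, and their summed level was 614 to 666 in enalapril and 724 to 1040 in vehicle. Of 9 adipocyte markers 4 fell, with a sum of 195 to 302 in enalapril and 299 to 386 in vehicle. Limma made no call among 12 macrophage and dendritic cell markers (3 at an unadjusted p under 0.05), 9 neutrophil and mast cell markers (1), 10 keratinocyte markers (1) or 5 lymph node stroma markers (2). Of 8 fibroblast markers 1 was higher, the fibrillin gene Fbn1 at 0.85 ± 0.17 (adjusted p = 0.0228, limma). The part of these tissue markers in the changes of Cd79b, Cd40, Vpreb3, Fkbp11 and Tnfsf13 was not tested.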

How the data were processed

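RNA of 8 skin samples was hybridised to 1-colour (Cy3) Agilent arrays. Per the file headers, Agilent Feature Extraction 9.1.3.1 made the deposited spot intensity on a linear scale, background-subtracted and detrended within the array (the submitters' processing notes give version 9.1). The deposited 0 or 1 flags, which are other values of the same software, were used to filter spots and probes. Values in the deposited matrix are log2 and matched the logarithm of the processed intensity, uncentred (medians 6.39 to 7.30). The authors' further steps are not given in the sources used here.

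Each array had 45018 spots, 43379 of them not controls. Outlier spots were removed, spots of a probe averaged, and 47 of 41174 probes with no spot left on some array dropped. From each log2 value the 75th percentile of its array was subtracted. Probes were named by accession (22912), symbol (6657) or synonym (3094) against RefSeq (GRCm38.p6, used for names and for the promoter sequences), and 8464 kept the file's name or none. Probes well above background on at least 4 arrays were tested with limma 3.58.1 in R 4.3.3 (files read with version 1.17.8 of data.table), with group as the only term, two-sided, and Benjamini-Hochberg adjustment over all 28580 probes. The pipeline was tested on simulated data. Labels call the samples biological replicates, and the number of arrays limits the precision. No 2 arrays were identical (largest correlation 0.9931).

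Every member probe is named. In each list the genes past the threshold are named, at most 5, or otherwise the 2 with the smallest p. Fbn1, Prdm1, Xbp1, Tnfrsf17, Eaf2, Cd28, Edem1 and Hsp90b1, and the genes said to be on no array well above background, were named after their values were seen. The members and lists were chosen with earlier results of these data known. Alternatives covered scaling, background correction, probe filters, test settings, the replicate number as a block and each array left out. Slide or scan could not be fitted as a block, because each held 1 group. No probe or protein sequences were used here. Of the genes most like the members, not every one is reported here.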

Additional observations from a re-analysis of the deposited data

How the results depend on the processing

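Of 12 tested member probes 1 was called, and the number was 1 again by quantile normalization, by normexp with local backgrounds above 2 times their own spot repaired, for the 8 probes bright enough on every array, for 1 probe per gene, and with a trend and robust estimation. It was 0 by median centring, E1A control centring, normexp with offset 50, no filter on dim probes and the replicate block, 2 at an adjusted p under 0.10, and 3 with the series matrix values or array weights. With an array left out it was between 0 and 3, the 3 being without enalapril 4. Over all probes 2979 were called, against 1981 by median centring, 280 by E1A control centring, 0 by normexp with offset 50 (3080 at an unadjusted p under 0.05), 1548 with the series matrix values, 1392 with no filter, 8534 with array weights, 38 with the replicate block and 5526 at an adjusted p under 0.10. With an array left out this was between 410 (without vehicle 1) and 7061 (without enalapril 4), and it was under 2979 in each of the other 6 such fits. Higher calls were 36.6% of all calls, 46.6% by quantile normalization and 4.97% with the series matrix values, in which the median log2 change of all probes was -0.41. It was 0.26 by normexp with offset 50, against -0.05 as reported.

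The Cd79b call was lost in 12 of 21 alternatives, with the change between -1.01 and -0.37 and the adjusted p between 0.00246 and 0.493. Same-numbered arrays of the groups had deviations with r of -0.13, 0.08, 0.17 and 0.03, and 3 of 8 arrays correlated best with their own number. These values show no clear pairing by number, but cannot establish that there was none. Of 21 alternatives, Cd40 lost its call in 12, Ly6d and Tnfsf13 in 14 each and Fkbp11 in 11, among them E1A control centring, normexp with offset 50, the series matrix values, no filter and the replicate block. By quantile normalization Ly6d changed by -0.21 (adjusted p 0.238) and Tnfsf13 by -0.39 (0.0714), both without a call. Vpreb3 lost its call in 5 and turned its sign in 1, and the replicate block was among the 5. Ighm gained a call under array weights for both brighter probes (adjusted p 0.0144 and 0.0344) and with the series matrix values for A_52_P358360 (0.0403), as did Ms4a1 (0.0317).

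Signs turned as follows, each without a call. Normexp with offset 50 gave 0.87 for Cd79a, 0.74 for Blk, 0.84 for Ighm A_52_P311042, 0.59 for Ms4a1, 0.47 for Vpreb3 and 0.58 for Igh, and repaired normexp 0.14 for Cd79a, 0.05 for Blk and 0.12 for Ighm A_52_P311042. Quantile normalization gave 0.11 for Cd79a and 0.02 for Jchain A_51_P150705, and the series matrix values -0.10 for Cd22. With an array left out, Jchain A_51_P150705 lay between -0.49 and 0.12, Blk between -0.52 and 0.08 and Cd79a between -0.31 and 0.01. The cause was not tested. The probes of Cd79a, Ms4a1 and Blk and the dim probes of Ighm and Cd22 lie near background, which limits them.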
